A study of Rattus norvegicus with 4 samples.

Results

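Gonadotrophs, the cells of the anterior pituitary that make luteinizing hormone (LH) and follicle-stimulating hormone (FSH), were taken here by their Lhb RNA, which encodes the β subunit of LH. A cell barcode counted as a gonadotroph when at least 0.3% of its unique molecular identifiers (UMIs, each standing for 1 captured RNA molecule) came from Lhb and when Prl stayed under 20%, Gh1 and Pomc under 5% and Tshb under 0.5%. Only barcodes that reached 1000 UMIs and 500 genes, with mitochondrial RNA making up no more than 20% of UMIs, entered. Of 20381 such barcodes 550 were selected on these hormone RNA shares. Because the cells were chosen by these RNAs, their levels are descriptions and were not tested.

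Gonadotrophs secrete LH and FSH under gonadotropin-releasing hormone (GnRH) from the hypothalamus, which acts through the receptor encoded by Gnrhr. Both hormones are pairs of a shared α subunit, encoded by Cga, and a specific β subunit, encoded by Lhb or Fshb, and thyrotrophs join the same α subunit to the Tshb product to make thyrotropin. FSH output is raised by activins and restrained by inhibins and follistatin, and gonadal steroids feed back on the cells through their nuclear receptors. Tgfbr3l encodes a gonadotroph-restricted co-receptor through which inhibin B acts.

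The cells came from Sprague Dawley females aged 75 days that were cycling and not sorted by stage of the cycle. In 1 preparation 30 glands were dissected, and their pooled anterior and pooled posterior lobes each gave 1 library. In the other, 30 undissected glands were pooled into 1 suspension that was loaded on 2 lanes, called lane 1 and lane 2. All glands were dispersed with trypsin and EDTA, and RNA was counted by droplet sequencing with the 10x Genomics 3′ version 3 kit. Animals cannot be told apart within a pool, stages of the cycle are mixed in every library, and the lanes repeat 1 suspension, so the 2 preparations were the replicates (n = 2) and p-values hold no estimate of the spread between animals. The 4 libraries held 61981865 to 72754998 UMIs. Of all barcode sequences 89 occurred in more than 1 library. Among the gonadotrophs alone 0 sequences did, and sequences that gonadotrophs share with other cells were not counted.

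The 250 bases before the transcription start are shown for the marker genes that RefSeq lists (rat assembly GRCr8, gene strand, 5′ to 3′). These RNAs mark the cells among hormone cells, except that Cga is shared with thyrotrophs. Capitals mark matches to short motifs: AAGGTCA or AAGGCCA and their complements TGACCTT and TGGCCTT, the letters bound by the gonadotroph factor Nr5a1 and other nuclear receptors; CGCCCCC or GGGGGCG, a core of the Egr1 element; and TATAAA on the gene strand. GGATTA or TAATCC (Pitx1) and GTAAACA or TGTTTAC (forkhead factors) were searched on both strands as well and were not found in these windows. A match is a run of letters, not a measured binding site.
Lhb, chr1:105037207-105037456, plus strand: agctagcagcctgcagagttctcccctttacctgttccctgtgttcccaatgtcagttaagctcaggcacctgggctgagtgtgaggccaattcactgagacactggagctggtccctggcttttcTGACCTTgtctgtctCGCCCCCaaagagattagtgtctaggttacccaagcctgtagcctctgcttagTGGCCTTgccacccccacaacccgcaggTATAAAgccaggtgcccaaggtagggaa
Cga, chr5:54283090-54283339, plus strand: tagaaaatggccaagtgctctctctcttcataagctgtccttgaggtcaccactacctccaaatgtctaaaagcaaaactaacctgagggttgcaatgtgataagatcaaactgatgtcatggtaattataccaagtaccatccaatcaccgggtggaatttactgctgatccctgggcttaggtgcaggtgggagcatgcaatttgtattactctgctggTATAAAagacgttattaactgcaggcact
Gnrhr, chr14:22211416-22211665, plus strand: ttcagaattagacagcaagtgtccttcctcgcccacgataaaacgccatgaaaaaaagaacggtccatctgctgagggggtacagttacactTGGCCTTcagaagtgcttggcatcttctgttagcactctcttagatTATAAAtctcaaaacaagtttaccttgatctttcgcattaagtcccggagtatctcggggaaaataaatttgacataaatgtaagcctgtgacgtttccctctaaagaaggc
Tgfbr3l, chr12:7398467-7398716, plus strand: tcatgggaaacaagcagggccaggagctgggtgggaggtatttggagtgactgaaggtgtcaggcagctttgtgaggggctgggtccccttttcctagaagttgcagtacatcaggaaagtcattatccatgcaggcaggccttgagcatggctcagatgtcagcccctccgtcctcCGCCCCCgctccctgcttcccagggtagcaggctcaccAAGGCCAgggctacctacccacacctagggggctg
In Lhb the nuclear receptor letters lay 124 to 118 and 56 to 50 bases before the start, the Egr1 core 109 to 103 bases before it and TATAAA 28 to 23 bases before it. RefSeq lists a further Lhb start downstream, whose window overlaps the one shown. The Cga window held TATAAA 29 to 24 bases before the start and none of the other letters. Gnrhr held TGGCCTT 158 to 152 bases and TATAAA 112 to 107 bases before its start, and Tgfbr3l held AAGGCCA at 35 to 29 and CGCCCCC at 73 to 67. Of all 33465 windows of this length, 3.99% held AAGGTCA, 5.30% AAGGCCA, 6.34% GGATTA, 13.2% CGCCCCC and 3.21% GTAAACA on either strand, and 8.05% held TATAAA on the gene strand. For Fshb only the name is given.

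The name of the cells was checked against marker RNAs that the rule had not used. A Tgfbr3l UMI was found in 99.8% of the 550 gonadotrophs, a Cga UMI in 99.8%, a Gnrhr UMI in 97.1% and an Fshb UMI in 57.5%. In lactotrophs, which should lack these RNAs other than as free RNA in the droplets, the shares were 5.90% for Tgfbr3l, 1.04% for Gnrhr and 1.24% for Fshb, and 62.5% for Cga, at a median of 16619 UMIs per cell against 12812.5 in gonadotrophs. With every cell thinned to 2000 UMIs the shares in gonadotrophs were 99.4% for Tgfbr3l, 99.8% for Cga, 81.0% for Gnrhr and 43.3% for Fshb, and in lactotrophs 1.14%, 19.8%, 0.187% and 0.202%. Thinning left out 9 gonadotrophs and 17 lactotrophs that were shallower. Tgfbr3l, Cga, Gnrhr and Fshb were thus all found above that background, and Fshb was the least widely detected of them.

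The limit on Lhb cut through a thin tail of cells with gonadotroph markers. Of the cells just under the limit, with Lhb at 0.2 to 0.3% of UMIs and the other limits met, there were 15, of which 12 had a Gnrhr UMI, 15 a Tgfbr3l UMI and 3 an Fshb UMI, with a median Cga share of 3.51%. At 0.1 to 0.2% there were 30 cells. Of these 19 had a Gnrhr UMI, 27 a Tgfbr3l UMI and 4 an Fshb UMI, with a median Cga share of 2.88%. Just above the limit, at 0.3 to 0.5%, there were 35 cells, of which 31 had a Gnrhr UMI, 35 a Tgfbr3l UMI and 7 an Fshb UMI, with a median Cga share of 2.80%. The 389 cells at 2 to 5% Lhb had a median Cga share of 11%, and 262 of them had an Fshb UMI. The limits on other hormones left out 53 of 603 barcodes with enough Lhb, 44 of them by Prl, 9 by Gh1 and 1 by Pomc. These 53 had a median of 25665 UMIs, and 19 of them had a Scrublet doublet score above 0.25, against 11 of the 550 cells kept.

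Of the 5666 cells in the anterior library 170 were gonadotrophs, a share of 3.0% with an exact (Clopper-Pearson) 95% interval of 2.57 to 3.48%. In the whole glands 325 of 10779 were, or 3.02% (2.70 to 3.36%). The lanes gave 3.26% (186 cells) and 2.74% (139 cells). The posterior library held 55 gonadotrophs of 3936 cells, or 1.40% (1.05 to 1.82%). With 1 library per lobe these shares were not tested, and the lobe and the library cannot be told apart. Mitochondrial RNA bears on them: its median share was 11.3% of UMIs in gonadotrophs and 13.1% in thyrotrophs, against 5.53% in lactotrophs, 7.75% in somatotrophs and 8.41% in corticotrophs. With cells of at most 10% mitochondrial UMIs, which keeps 27.8% of the gonadotrophs, the shares were 0.777% in the anterior library, 0.315% in the posterior library, 1.68% in lane 1 and 1.32% in lane 2.

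RNA of other cell types in the gonadotroph sums was measured with marker lists. Summed Prl and Drd2, the lactotroph markers, ranged from 5105 to 16086 CPM (UMIs of a gene per 1000000 UMIs of the summed cells) over the libraries, nearly all of it Prl, and 26 gonadotrophs had Prl at 1% of UMIs or more. The somatotroph markers Gh1 and Ghrhr summed to 460 to 1546 CPM. The 4 corticotroph markers summed to 181 to 1388 CPM, and the 5 folliculostellate markers to 40.0 to 133.7 CPM. The 3 lymphocyte markers, the melanotroph markers Pax7 and Oacyl, the fibroblast genes Col1a1 and Col1a2, and Flt1, Alas2 and Sox10 were at 0 UMIs. Lists for pituicytes (0 to 32.5 CPM), endothelium (0 to 6.30 CPM), fibroblasts (1.84 to 23.2 CPM), macrophages (1.38 to 8.12 CPM), erythrocytes (8.12 to 13.5 CPM) and Schwann cells (3.15 to 4.64 CPM) were low in every library, and Trhr, the thyrotroph marker analysed here, reached 1.84 CPM.

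Cga UMIs were found in 549 of the 550 gonadotrophs, whereas Fshb was uneven from cell to cell. Lhb had a median of 2.88% of a cell's UMIs over the 550 cells and ran from the limit to 6.43%. By library its median was 3.16% in the anterior library, 2.79% in lane 1, 2.80% in lane 2 and 2.12% in the posterior library. Cells under 1% Lhb were 34.5% of the posterior gonadotrophs and 10.8 to 12.4% in the other libraries. Cga had a median of 9.18% and reached 33.2%, with medians of 9.03%, 9.95% and 9.60% in the anterior library and the lanes and 5.40% in the posterior library. The posterior library was lowest for both RNAs, while the other 3 libraries lay close together.

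Fshb, the β subunit of FSH, was at 0 UMIs in 234 of 550 gonadotrophs, or 42.5% (exact 95% binomial interval 38.4 to 46.8%). The share was 41.8% in the anterior library, 50.9% in the posterior library, 43.0% in lane 1 and 39.6% in lane 2. With every cell thinned to 5000 UMIs, which left out 52 shallower cells, it was 47.8% of 498 cells, so at this depth 0 UMIs covers cells with low Fshb as well as cells with none. In contrast, 111 cells had Fshb at 0.3% of UMIs or more, 34 had 1% or more, and the highest had 3.06%. The 55 cells with the most Fshb UMIs held 67.1% of all 15695 of them. The median over all cells was 0.0122%. The plot of hormone shares by cell shows this spread in each of the 4 libraries.

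**Figure D1:**
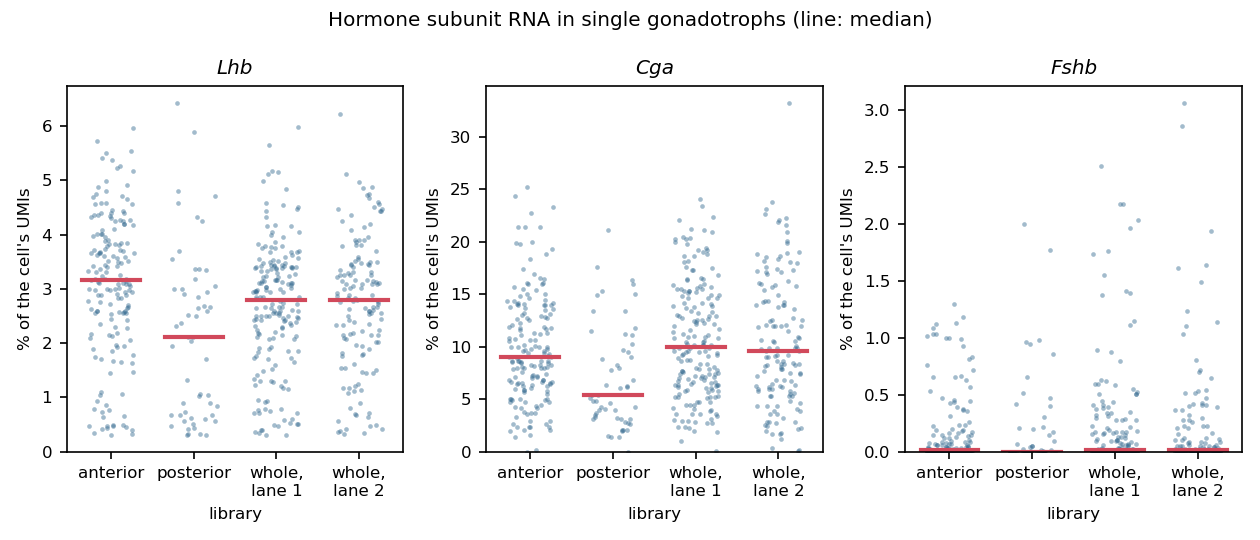
Share of each gonadotroph's UMIs that came from Lhb, Cga and Fshb (y axes, percent of the cell's UMIs, different ranges), by library (x axis). Each point is 1 cell, with random sideways spread, and the red line is the median of the library. Most Fshb points lie near 0 and a few reach 3.06%, whereas Lhb points spread around medians of 2.12 to 3.16%.

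The 3 subunit RNAs went together loosely across cells. Within libraries, Spearman's rho between the shares of Lhb and Cga was 0.38 in 170 anterior cells, 0.40 in 186 cells of lane 1, 0.53 in 139 cells of lane 2 and 0.67 in 55 posterior cells. Between Lhb and Fshb it was 0.21, 0.30, 0.23 and 0.57 in the same order. The shares of 1 cell share its total, and each also went with the cell's UMI count: rho between Fshb and UMIs was 0.25, 0.25, 0.10 and 0.55. These values describe the cells and were not tested.

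Summed over the gonadotrophs of a library, Cga stood at 103467 CPM in the anterior library, 83580 in the posterior library, 117446 in lane 1 and 113703 in lane 2. Thyrotrophs, the other cells that make this subunit, had 123851 and 108200 CPM in the dissected preparation (anterior library) and the whole glands, against 103467 and 115846 CPM in gonadotrophs. The order of the 2 cell types turned between the preparations, and the fitted difference (log2) was -0.05 (SE 0.18, adjusted p = 0.902). Lactotrophs, somatotrophs and corticotrophs had 99.9 to 650.3 CPM.

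Fshb stood at 1772 CPM in the anterior library, 2978 in the posterior library, 2455 in lane 1 and 2298 in lane 2. Lactotrophs, somatotrophs and corticotrophs had 0.467 to 1.47 CPM, and 1 UMI was found in thyrotrophs, a ratio of 2254-fold (counting interval 404 to 89030). The posterior gonadotrophs had the highest summed Fshb although their median cell had none, and 6 of the 55 cells held 70.9% of its UMIs there. Gnrhr, the GnRH receptor gene, stood at 1310 CPM in the anterior library, 878 in the posterior library, 1086 in lane 1 and 1160 in lane 2, and at 0.725 to 2.06 CPM in lactotrophs, somatotrophs and corticotrophs. Thyrotrophs held 2 Gnrhr UMIs, a ratio of 617-fold (counting interval 171 to 5097). Tgfbr3l, the inhibin B co-receptor gene, was even between the libraries, at 4617 CPM in the anterior library, 4637 in the posterior library, 4916 in lane 1 and 4562 in lane 2. It stood at 73.6 and 41.3 CPM in thyrotrophs and at 5.60 to 10.6 CPM in the other 3 hormone classes. The levels of gonadotrophs and of each other class did not overlap for these 3 genes.

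**Figure D2:**
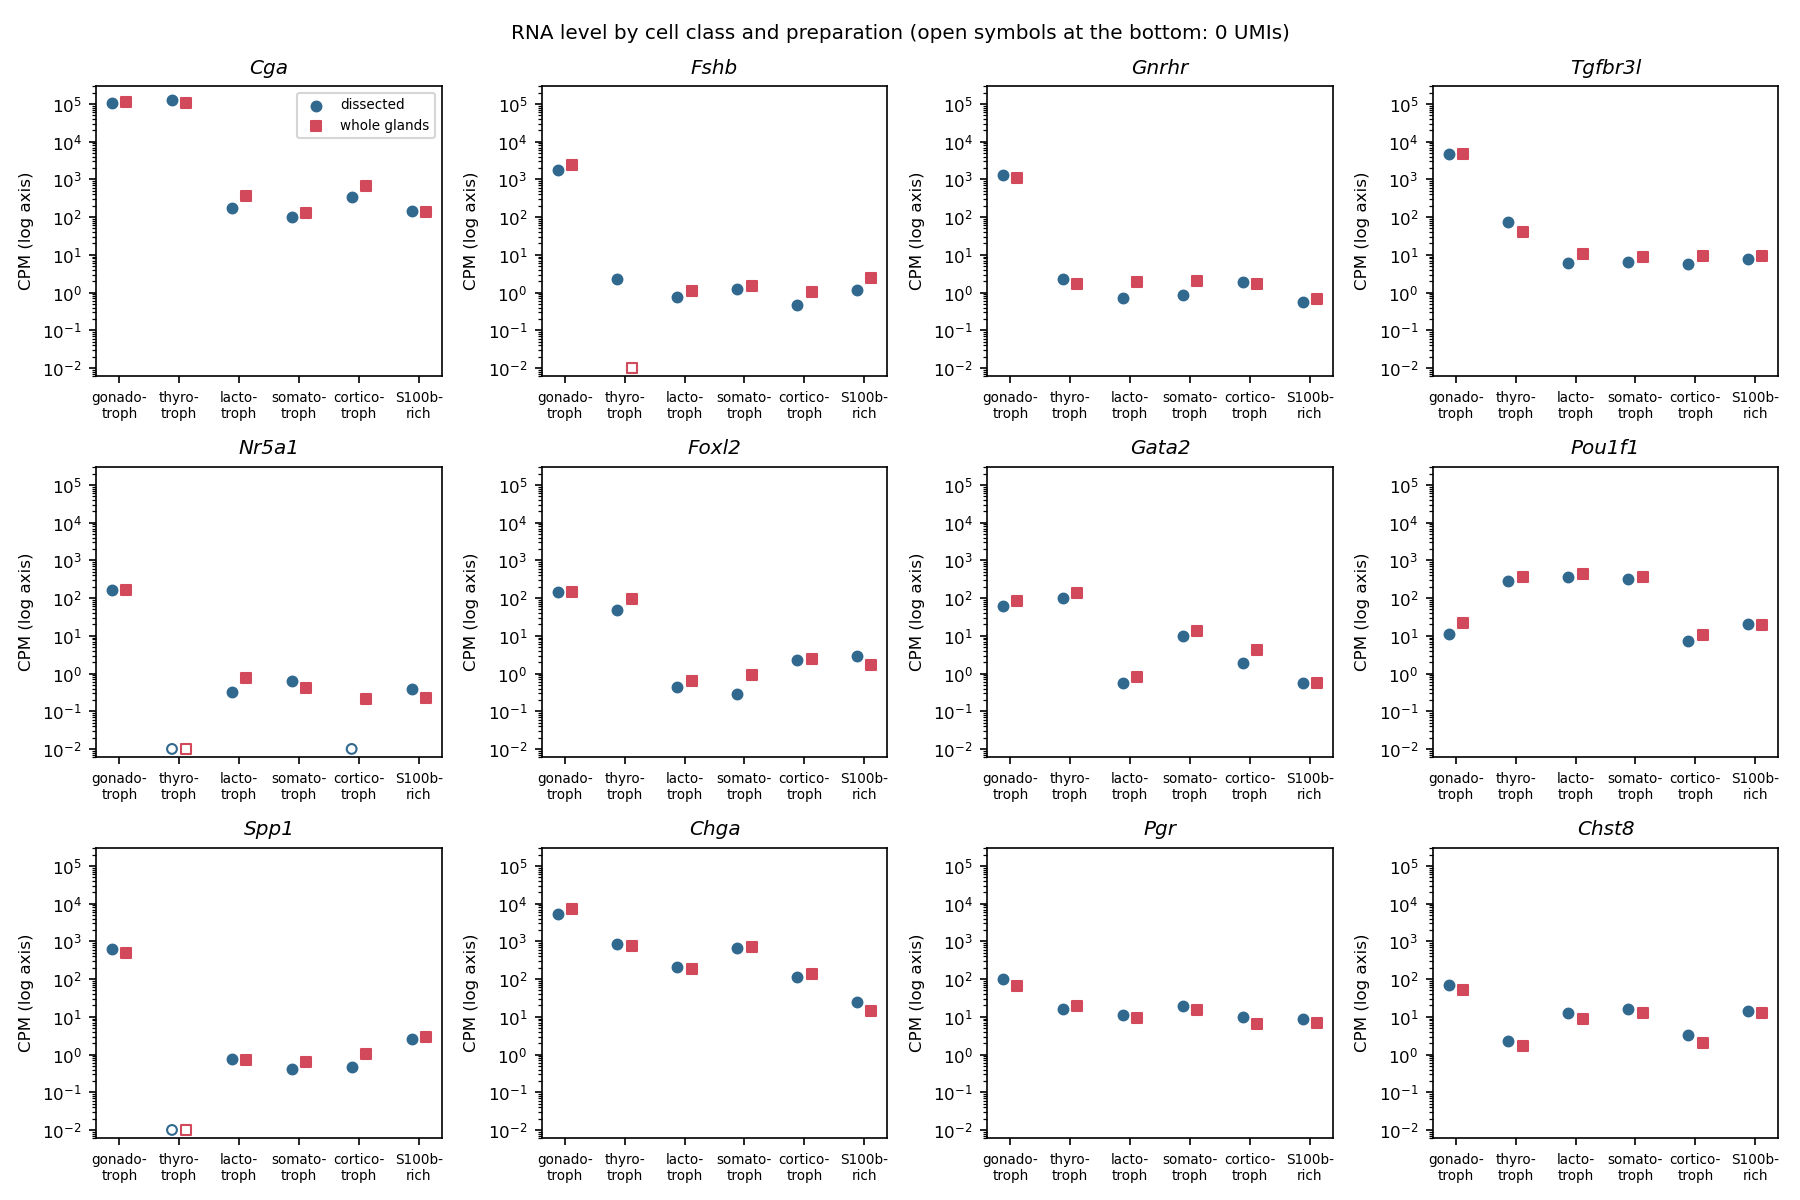
Level of 12 RNAs (y axis, CPM, log scale) in the summed UMIs of gonadotrophs, 4 other hormone classes and S100b-rich cells (x axis). Circles are the dissected preparation, squares the whole glands, and open symbols at the bottom mark sums with 0 UMIs. Fshb, Gnrhr, Tgfbr3l, Nr5a1 and Spp1 stand far above every other class, whereas Cga is shared with thyrotrophs and Pou1f1 is high in thyrotrophs, lactotrophs and somatotrophs.

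The rest of the transcriptome was compared with thyrotrophs, which share Cga, and with the other hormone cells. Thyrotrophs (at least 0.5% Tshb) were 38 anterior and 55 whole-gland cells, and the other contrast took the mean of lactotrophs (at least 20% Prl), somatotrophs (at least 5% Gh1) and corticotrophs (at least 5% Pomc, without melanotroph marks) on the log2 scale. A gene was called when its edgeR p-value, adjusted by Benjamini-Hochberg over all genes, was below 0.05 and its level differed 2-fold or more in either direction. In these comparisons only called genes are described as higher or lower. Against thyrotrophs 879 of 13227 tested genes were higher (6.65%) and 869 lower (6.57%), with a median log2 fold change of 0.07 over all genes. Against the other hormone cells 1427 were higher (10.8%) and 1145 lower (8.66%), with a median of -0.03. A gene whose level in gonadotrophs was less than 10% of that in its highest class may be free RNA. Without such genes 869 were higher and 527 lower against thyrotrophs, and 1392 and 593 against the other cells. With cells of at most 10% mitochondrial UMIs the calls against thyrotrophs fell to 320 higher and 212 lower. That limit left 11 thyrotrophs in each preparation. Both contrasts share the gonadotroph sums, so they are given side by side and not compared.

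The counts of called members in each list below are to be read beside the shares over all tested genes. Those shares were 6.65% higher and 6.57% lower against thyrotrophs, and 10.8% and 8.66% against the other hormone cells. Of the GnRH receptor signalling list, 25 members were tested. Against thyrotrophs 6 were higher and 3 lower, with a median log2 fold change of 0.46 (0.17 with genes of few UMIs at their bound) beside 0.07 over all genes. Against the other hormone cells 7 were higher and 2 lower, with a median of 0.27. The regulators of G protein signalling, which shorten the action of receptors such as that for GnRH, were among the higher members. Rgs4 stood at 568 CPM in the anterior library, 717 in the posterior library, 488 in lane 1 and 469 in lane 2, and at 36.8 and 56.1 CPM in thyrotrophs, a difference of 3.51 (SE 0.19, adjusted p = 1.95e-10). Against the other hormone cells it was higher by 6.93 (SE 0.09, adjusted p = 1.47e-20). Rgs2 stood at 450.3 CPM in the anterior library, 876 in the posterior library, 507 in lane 1 and 392 in lane 2, higher by 2.17 (SE 0.18) and 1.83 (SE 0.09) in the 2 contrasts. All 4 gonadotroph sums of both genes lay above every other hormone class. Prkcb, a protein kinase C, stood at 49.2 and 47.9 CPM and was higher by 2.03 (SE 0.31) and 2.14 (SE 0.12). Itpr1, a calcium release channel of the endoplasmic reticulum, was higher against the other hormone cells by 1.80 (SE 0.09). Dusp1, a phosphatase that ends MAP kinase signals, was higher against thyrotrophs by 1.88 (SE 0.14), and lactotrophs had more of it than gonadotrophs (787 and 624 against 405 and 450.2 CPM). Plcb1, a phospholipase C that acts downstream of G proteins of the Gq kind, was lower in both contrasts, at -3.52 (SE 0.61) and -2.24 (SE 0.42), at only 3.68 and 0.515 CPM in gonadotrophs.

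Of 25 tested lineage transcription factors, 9 were higher and 2 lower against thyrotrophs (median 0.35), and 13 higher and 4 lower against the other hormone cells (median 1.09 beside -0.03 over all genes). Nr5a1, the nuclear receptor SF-1 that specifies gonadotroph gene expression, stood at 163 CPM in the anterior library, 167 in the posterior library, 157 in lane 1 and 169 in lane 2. It had 0 UMIs in both thyrotroph sums, so that gonadotrophs were at least 56.3-fold higher when the group is given 3 counts, and 0 to 0.763 CPM in the other 3 classes. Its partner and antagonist Nr0b1 (DAX-1) stood at 97.0 and 144 CPM, higher by 5.09 (SE 0.37) against thyrotrophs and by 6.85 (SE 0.14) against the other hormone cells. Nhlh2, a basic helix-loop-helix factor, had 0 UMIs in thyrotrophs and was at least 15.7-fold higher, at 49.6 and 42.8 CPM. These factors separated gonadotrophs from all 4 other hormone classes.

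Another set was shared with thyrotrophs. Gata2, which both cell types need, stood at 61.6 CPM in the anterior library, 104 in the posterior library, 85.0 in lane 1 and 77.7 in lane 2, and at 98.9 and 137 CPM in thyrotrophs, a difference of -0.64 (SE 0.16, adjusted p = 0.00656) that missed the size required. Against the other hormone cells Gata2 was higher by 4.27 (SE 0.12). Isl1, a LIM homeodomain factor, differed from thyrotrophs by -0.10 (SE 0.17, adjusted p = 0.73) and was higher than in the other hormone cells by 5.05 (SE 0.12). Foxl2, a forkhead factor that acts with activin signals at Fshb, stood at 142 and 148 CPM in gonadotrophs and 48.3 and 92.4 CPM in thyrotrophs. It was higher by 1.07 (SE 0.20, adjusted p = 7.08e-04) against thyrotrophs and by 6.90 (SE 0.14) against the other hormone cells, and with the posterior library in place of the anterior one the former value was 0.87 and not called. Pou1f1, the factor of the thyrotroph, lactotroph and somatotroph lineage, was at 11 and 22.1 CPM in gonadotrophs and 281 and 368 CPM in thyrotrophs. It was lower in both contrasts, at -4.14 (SE 0.17) and -2.93 (SE 0.15), and 52 of its 123 UMIs in gonadotrophs lay in 1 cell.

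General pituitary factors were mostly not called. Pitx1 stood at 201 and 228 CPM and differed by -0.38 (SE 0.11) from thyrotrophs and by 0.46 (SE 0.07) from the other hormone cells, both under the size required. The same held for Lhx3 at -0.57 (SE 0.26) and 0.50 (SE 0.14). Egr1, the immediate early factor that carries GnRH signals to Lhb, stood at 633 and 575 CPM, against 499 and 683 CPM in thyrotrophs and 297 to 929 CPM in the other classes, and was not called in either contrast. Neurod4, a helix-loop-helix factor, was higher in both, at 2.55 (SE 0.18) and 2.55 (SE 0.08). Msx1 was called against the other hormone cells at 1.09 (SE 0.18) and stood at 575 and 521 CPM in S100b-rich cells, against 49.6 and 41.5 CPM in gonadotrophs. The Msx1 call was lost with DESeq2 (1.14, adjusted p = 0.161), with Lhb at 1% or more (0.96) and with the posterior library in place of the anterior one (0.94). Lhx4, with 13 UMIs in all gonadotrophs, was too low to be tested.

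The activin, inhibin and BMP list had 25 tested members, of which 7 were higher and 2 lower against thyrotrophs (median 0.56, or 0.27 with genes of few UMIs at their bound) and 10 higher and 3 lower against the other hormone cells (median 0.14). Among the ligands, Inhbb, the β subunit of activin B and inhibin B, stood at 42.3 CPM in the anterior library, 27.8 in the posterior library, 31.9 in lane 1 and 36.8 in lane 2. It was higher by 2.55 (SE 0.59, adjusted p = 0.00402) against thyrotrophs and by 2.72 (SE 0.21) against the other hormone cells. Inha, the inhibin α subunit, stood at 15.2 and 14.7 CPM, at 0.86 (SE 0.46, adjusted p = 0.221) against thyrotrophs, not called, and higher by 1.30 (SE 0.21) against the others. With the posterior library in place of the anterior one Inha was called against thyrotrophs (2.19). Inhba had 6 UMIs in all gonadotrophs and was not tested. Fst, which encodes follistatin, the activin-binding protein, stood at 11 and 6.44 CPM, with 0 UMIs in thyrotrophs (at least 2.80-fold higher) and 0 to 0.322 CPM in the other 3 classes. Inhibin B subunit RNA and follistatin RNA were thus both found in these cells, follistatin in 37 of the 550.

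Among the receptors, Tgfbr3, which encodes betaglycan, the inhibin A co-receptor, stood at 99.7 CPM in the anterior library, 119 in the posterior library, 106 in lane 1 and 117 in lane 2. It was higher by 1.62 (SE 0.21, adjusted p = 1.40e-05) against thyrotrophs and by 4.84 (SE 0.11) against the others, and Tgfbr3l by 6.52 (SE 0.21) and 8.91 (SE 0.11). The activin type II receptor gene Acvr2b stood at 22.5 and 23.4 CPM, at 1.34 (SE 0.45, adjusted p = 0.04) against thyrotrophs, a call that was lost in 4 alternatives, without lane 1 (1.06) and without lane 2 (0.86) among them. Acvr2a, at -0.34 (SE 0.51) and -0.48 (SE 0.23), and the type I receptor gene Acvr1b, at 0.56 (SE 0.56) and 0.68 (SE 0.24), were not called. Igsf1, whose loss causes central hypothyroidism in people, was lower in both contrasts, at -4.31 (SE 0.26) and -3.28 (SE 0.18), at 11 and 3.86 CPM. Both inhibin co-receptors stood above the other hormone classes, and the levels of Acvr1b and Acvr2a overlapped with theirs.

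Of 17 tested steroid and thyroid hormone receptors and related genes, 5 were higher and 4 lower against thyrotrophs (median 0.11) and 4 higher and 4 lower against the others (median -0.28). Receptors of ovarian steroids were among the higher ones. Pgr, the progesterone receptor gene, stood at 102 CPM in the anterior library, 51.0 in the posterior library, 58.5 in lane 1 and 74.1 in lane 2 and was higher by 2.21 (SE 0.27, adjusted p = 7.99e-06) and 2.56 (SE 0.11). Esr1, the gene of estrogen receptor α, stood at 33.1 CPM in the anterior library, 32.5 in the posterior library, 41.4 in lane 1 and 33.7 in lane 2 and was higher by 2.50 (SE 0.49, adjusted p = 0.00111) and 2.59 (SE 0.21). For both genes every gonadotroph library lay above the sums of all 4 other hormone classes. Esr2, the gene of estrogen receptor β, had 8 UMIs in all gonadotrophs and was not tested. The thyroid hormone receptor gene Thrb, at 37.7 and 26.3 CPM against 122 and 145 CPM in thyrotrophs, was lower, at -2.07 (SE 0.18). Rxrg, a retinoid X receptor, had 3 UMIs in gonadotrophs and was 118-fold (counting interval 38.7 to 590.1) lower.

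Granins form the core of secretory granules. Of 12 tested granins and processing genes 2 were higher and 3 lower against thyrotrophs (median -0.07), and 4 higher and 0 lower against the others (median 0.84). Chga, which encodes chromogranin A, stood at 5262 CPM in the anterior library, 7493 in the posterior library, 7901 in lane 1 and 6595 in lane 2, against 863 and 778 CPM in thyrotrophs, and was higher by 3.01 (SE 0.13, adjusted p = 5.35e-12) and 4.29 (SE 0.08). Chgb, which encodes chromogranin B, went the other way: it stood at 2791 CPM in the anterior library, 3023 in the posterior library, 2746 in lane 1 and 2622 in lane 2, against 12028 and 12977 CPM in thyrotrophs, and was lower, at -2.12 (SE 0.06, adjusted p = 3.57e-14). It differed from the mean of the other hormone cells by -0.15 (SE 0.05). Scg2, which encodes secretogranin II, stood at 11501 and 12811 CPM and was higher by 1.35 (SE 0.08) and 3.23 (SE 0.05). Resp18 and Scg3 were at 0.84 (SE 0.05) and 0.84 (SE 0.07) against the others, under the size required. Of 28 exocytosis genes 2 were higher and 2 lower against thyrotrophs (median -0.12), near the shares of 6.65% and 6.57% over all genes. Against the others 5 were higher and 4 lower (median -0.01), beside 10.8% and 8.66% of all genes. Syt4, a synaptotagmin, stood at 322 and 304 CPM and was called in neither contrast.

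Of 35 tested ion channel genes 8 were higher and 4 lower against thyrotrophs (median 0.25) and 12 higher and 6 lower against the others (median 0.26). The shares over all genes were 6.65% higher and 6.57% lower against thyrotrophs, and 10.8% and 8.66% against the others. Kcnk3, an acid-sensitive potassium leak channel, stood at 215 CPM in the anterior library, 286 in the posterior library, 229 in lane 1 and 233 in lane 2, and was higher by 1.68 (SE 0.18, adjusted p = 1.37e-06) and 6.16 (SE 0.11). Kcnk1, another leak channel, was higher against thyrotrophs by 2.79 (SE 0.33). Cacna1e, an R-type calcium channel subunit, stood at 52.4 CPM in the anterior library, 27.8 in the posterior library, 17.5 in lane 1 and 18.7 in lane 2. It had 0 UMIs in thyrotrophs (at least 10.5-fold higher) and was higher by 4.70 (SE 0.36) against the others. The anterior library had the most Cacna1e of the 4. Of 23 other hypothalamic and peripheral receptors 3 were higher and 3 lower against thyrotrophs (median 0.46, or -0.28 with genes of few UMIs at their bound) and 5 and 5 against the others (median -0.27). The receptors that define other cell types were low: Trhr, the receptor for thyrotropin-releasing hormone, was lower than in thyrotrophs, at -5.56 (SE 0.45), and Drd2, the dopamine receptor of lactotrophs, was lower than in the other cells, at -2.07 (SE 0.44). Sstr3, a somatostatin receptor, was at least 8.93-fold higher than in thyrotrophs, where it had 0 UMIs, and higher by 2.51 (SE 0.20) against the others.

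Local peptides split by gene. Of 14 tested, 3 were higher and 4 lower against thyrotrophs (median 0.14, or -0.55 with genes of few UMIs at their bound) and 5 higher and 4 lower against the others (median 0.17). Over all genes 6.65% were higher and 6.57% lower against thyrotrophs, and 10.8% and 8.66% against the others. Spp1, which encodes the secreted phosphoprotein osteopontin, stood at 615 CPM in the anterior library, 559 in the posterior library, 501 in lane 1 and 512 in lane 2. It had 0 UMIs in thyrotrophs (at least 189-fold higher) and was higher by 9.26 (SE 0.08, adjusted p = 4.22e-22) against the others. A Spp1 UMI was found in 65.5% of gonadotrophs (39.9% at 2000 UMIs) and in 0.946% of lactotrophs (0.187%). Pdyn, the opioid precursor prodynorphin, stood at 51.5 and 44.8 CPM, at least 16.4-fold higher than in thyrotrophs, where it had 0 UMIs, and higher by 3.62 (SE 0.15) against the others. Nmu, which encodes neuromedin U, lay between the classes: it was lower than in thyrotrophs, at -2.65 (SE 0.11) and higher than in the others by 3.39 (SE 0.11). Gal, which encodes galanin, was at 10.1 and 14.7 CPM, lower than in the other hormone cells, at -3.09 (SE 0.28), and Adcyap1, which encodes PACAP, had 7 UMIs in all gonadotrophs.

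LH carries N-glycans that end in sulfated N-acetylgalactosamine, which set its clearance from blood. Of 13 tested glycan enzymes 3 were higher and 0 lower against thyrotrophs (median 0.28), and 6 higher and 0 lower against the others (median 0.54). Chst8, the sulfotransferase that acts on these sugars, stood at 71.7 CPM in the anterior library, 55.7 in the posterior library, 52.6 in lane 1 and 48.8 in lane 2. Thyrotrophs held 2 Chst8 UMIs, a ratio of 30.4-fold (counting interval 8.35 to 252), and against the other hormone cells it was higher by 2.74 (SE 0.12, adjusted p = 1.43e-12). The transferases of the step before it were near the limit of detection: B4galnt3 had 1 UMI and B4galnt4 29 UMIs in all gonadotrophs. Man2a1, a mannosidase of N-glycan maturation, stood at 106 CPM in the anterior library, 137 in the posterior library, 133 in lane 1 and 126 in lane 2 and was higher by 5.27 (SE 0.15) against the others, while against thyrotrophs it was at 0.87 (SE 0.24, adjusted p = 0.0135), under the size required. The sialyltransferase gene St3gal4 was higher in both contrasts, at 2.47 (SE 0.30) and 1.06 (SE 0.09), and St6gal1 was higher against the others, at 2.63 (SE 0.17). The St3gal4 call against the others was lost without lane 1 (0.94) and with no filter on low counts (0.99). Of 20 endoplasmic reticulum genes 0 were called against thyrotrophs (median 0.30) and 4 were higher against the others (median 0.55), among them the chaperone gene Calr at 1.30 (SE 0.05) and Creb3l1, a stress-activated factor, at 1.19 (SE 0.11). Creb3l1 stood at 105 and 72.6 CPM in gonadotrophs, 94.2 and 79.0 in lactotrophs and 111 and 93.9 in somatotrophs, so that somatotrophs lay above gonadotrophs in both preparations, while corticotrophs stood at 2.80 and 3.29 CPM. Hspa5 and Ssr4 stood at 0.83 (SE 0.06) and 0.65 (SE 0.07), under the size required.

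Of 20 tested immediate early and stress genes, 10 were higher and 0 lower against thyrotrophs (median 0.89), and 3 higher and 0 lower against the others (median -0.06). Atf3, a stress-induced factor, stood at 715 CPM in the anterior library, 1313 in the posterior library, 744 in lane 1 and 630.2 in lane 2, against 16.1 and 82.5 CPM in thyrotrophs and 131 to 309.7 CPM in the others, and was higher by 3.76 (SE 0.31, adjusted p = 5.60e-08). Btg2 was higher in both contrasts, at 1.49 (SE 0.11) and 1.08 (SE 0.08). Fos was at 1.0 (SE 0.16) against thyrotrophs and fell under the size required in several alternatives (0.86 to 0.997), and against the others it was at -0.69 (SE 0.12). S100b-rich cells had more Fos, 11302 and 10820 CPM, than any hormone class.

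Of 17 cell cycle genes 4 were higher and 1 lower against thyrotrophs and 4 higher and 10 lower against the others (median -1.59). The higher ones were Ccnd2 and the inhibitors of cyclin-dependent kinases Cdkn1a, Cdkn1b and Cdkn1c. Cdkn1b, which encodes p27, stood at 387 CPM in the anterior library, 370.0 in the posterior library, 372 in lane 1 and 395 in lane 2, and was higher by 3.02 (SE 0.15, adjusted p = 4.70e-11) and 2.19 (SE 0.06). All gonadotroph libraries were above 128 CPM, the most in any other hormone class. Cdkn1c, which encodes p57, was higher by 2.92 (SE 0.35) and 2.72 (SE 0.13), and Ccnd2 by 1.14 (SE 0.12) and 1.15 (SE 0.06). Among the genes lower against the others, Top2a, a topoisomerase of dividing cells, had 0 UMIs in all 550 gonadotrophs. It was at least 16.8-fold lower than in the pooled other hormone cells. Mki67 UMIs lay in 20 gonadotrophs, 1 in each. Pcna and Tyms, genes of DNA synthesis, were not among the lower ones.

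**Figure D3:**
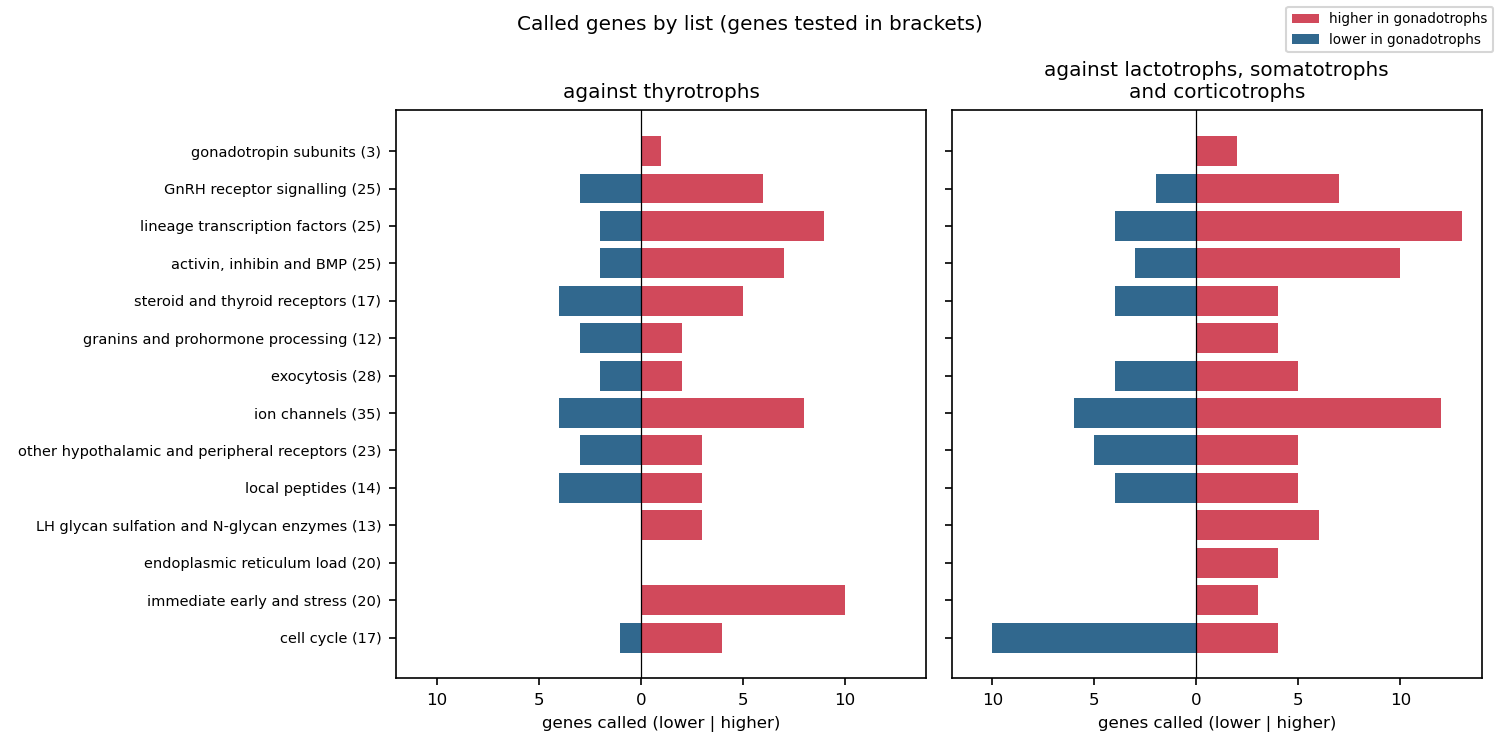
Number of genes called higher (red, right) or lower (blue, left) in gonadotrophs for each gene list (y axis, number tested in brackets), against thyrotrophs (left panel) and against the mean of lactotrophs, somatotrophs and corticotrophs (right panel). Against thyrotrophs 10 of 20 immediate early and stress genes were higher, and against the other classes 10 of 17 cell cycle genes were lower. The shares over all tested genes were 6.65% higher against thyrotrophs and 8.66% lower against the other classes.

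The largest changes with at least 50 CPM in the higher class included genes outside these lists. Rrad, a small GTPase that inhibits calcium channels, stood at 435 CPM in the anterior library, 934 in the posterior library, 691 in lane 1 and 566 in lane 2. It had 0 UMIs in thyrotrophs (at least 196-fold higher) and was higher by 8.34 (SE 0.11, adjusted p = 9.73e-20) against the others. Defb24, a defensin gene, stood at 190.2 and 215 CPM, at least 71.4-fold higher than in thyrotrophs and higher by 8.65 (SE 0.15) against the others. Cnga1, a cyclic nucleotide-gated channel gene, and Krt7, a keratin gene, had 0 UMIs in thyrotrophs and were at least 53.2-fold and at least 23.9-fold higher. AABR07027028.1, a gene known by its clone name, was higher by 9.55 (SE 0.30) against the others. Each of these genes was high in both preparations and in the posterior library as well.

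In the other direction, Thy1, a cell surface glycoprotein, was at 720.2 and 830.4 CPM in thyrotrophs and 3.22 and 3.09 CPM in gonadotrophs, lower, at -7.88 (SE 0.20, adjusted p = 4.39e-15). Alkal2, a ligand of receptor tyrosine kinases, had 1 UMI in gonadotrophs and was 530.0-fold (counting interval 92.8 to 21161) lower than in thyrotrophs. Tac1, the substance P precursor, was lower, at -6.92 (SE 0.54), Gsdma, a gasdermin, at -6.43 (SE 0.42) and AABR07040887.1 at -6.11 (SE 0.21). Against the other hormone cells the largest decreases were in Dlk1, a Notch-related membrane protein (-4.40 (SE 0.14)), Cd74, a chaperone of antigen presentation (-4.37 (SE 0.63)), the calmodulin regulator gene Pcp4 (-4.29 (SE 0.13)), Doc2g (-4.18 (SE 0.41)), Dusp26 (-4.14 (SE 0.20)) and Fam89a (-4.07 (SE 0.47)). Doc2g stood at 624 and 542 CPM in corticotrophs and under 3 CPM in the other hormone classes. In gonadotrophs all 6 genes had less than 10% of the level of their highest class, and the part of free RNA in these low levels was not tested. With cells of at most 10% mitochondrial UMIs, the calls of Plcb1, Inhbb, Acvr2b, Esr1, Thrb, Scg2 and Fos against thyrotrophs and of Ccnd2 and Drd2 against the others were lost. That limit left 11 thyrotrophs in each preparation. Plcb1 was then at -3.17 (SE 1.31), Inhbb at 3.13 (SE 1.23) and Acvr2b at 1.73 (SE 0.89). Esr1 was at 2.63 (SE 0.92), Thrb at -1.10 (SE 0.45) and Drd2 at -1.58 (SE 0.63), and these 6 missed the adjusted p. Scg2 (0.82), Fos (0.86) and Ccnd2 (0.84) fell under the size required.

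The last comparison asked which RNAs went with Fshb among gonadotrophs. In each library the cells above the library's median Fshb share were called Fshb-rich and the others Fshb-poor, which gave 274 and 276 cells. Fshb formed these groups and is a description, with a median of 0.190% of UMIs in rich cells and 0 in poor cells. Rich cells were somewhat deeper, with a median of 13306.5 UMIs against 11470.5, and had more of the other subunits: medians were 3.14% against 2.50% for Lhb and 10.7% against 7.45% for Cga. In the posterior library the gap was wider, with 19687 against 10455.5 UMIs, 2.94% against 0.790% Lhb and 9.49% against 4.05% Cga. Summed by group and preparation, the log2 difference of Cga was 0.43 (SE 0.04, adjusted p = 1.55e-27), under the size required. Of 8890 tested genes edgeR called 38 higher in rich cells (0.427%) and 18 lower (0.202%), with a median of -0.00 over all genes. The fit had 1 residual degree of freedom, so that its p-values rest mainly on counting error and a spread shared by all genes. DESeq2 called 3 (Hba-a3 and Prr15 higher, Igfbp2 lower), and 902 genes had an unadjusted p under 0.05 with edgeR. Leaving out lane 1 gave 9 calls, and leaving out doublet scores above 0.25 gave 79, of which 39 were higher and 40 lower. The posterior library, with its wider gap in depth and in Lhb and Cga, was not in the fit, and 43 of the 56 called genes (76.8%) had the same direction there, against 55.6% of the 8834 genes not called.

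Hba-a3, a hemoglobin α gene, showed the largest difference among genes with at least 50 CPM: 219 against 26.5 CPM in the anterior library, 77.0 against 6.31 CPM in the posterior library, 174 against 27.8 CPM in lane 1 and 176 against 21.8 CPM in lane 2 in rich against poor cells. The log2 fold change was 2.95 (SE 0.15, adjusted p = 3.59e-81), with UMIs in 65 rich and 26 poor cells. Erythrocyte markers summed to 14.2 and 17.1 CPM in rich cells of the 2 preparations and 5.09 and 4.91 CPM in poor cells. Among these markers an entry of Hba-a2, also a hemoglobin α gene, was itself called higher, with 49 UMIs in rich and 8 in poor cells. Hbb had 1 UMI in the gonadotrophs of the 2 preparations, and Alas2 had 0. The part of erythrocyte RNA in the Hba-a3 difference was not tested. Folliculostellate markers summed to 178 and 35.1 CPM in rich and 79.4 and 85.7 CPM in poor cells. Prr15 was at 162 against 56.0 CPM in the anterior library, 75.2 against 47.4 CPM in the posterior library, 133 against 78.4 CPM in lane 1 and 179.8 against 59.4 CPM in lane 2, a log2 fold change of 1.33 (SE 0.13, adjusted p = 6.02e-22). Csrp2, a LIM domain protein, was at 67.0 against 32.6 CPM in the anterior library, 93.5 against 34.7 CPM in the posterior library, 118 against 39.7 CPM in lane 1 and 114 against 47.3 CPM in lane 2, a log2 fold change of 1.36 (SE 0.16, adjusted p = 4.35e-14). In all 4 libraries the rich cells had more of these 3 RNAs than the poor cells.

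Further genes were higher in rich cells. Hpca, the calcium sensor hippocalcin, was higher by 1.72 (SE 0.22), and Prss23, a serine protease, by 1.31 (SE 0.17). St3gal4, a sialyltransferase that adds terminal sialic acid to glycans, was at 80.4 against 26.5 CPM in the anterior library, 69.7 against 37.9 CPM in the posterior library, 72.4 against 42.7 CPM in lane 1 and 74.3 against 24.2 CPM in lane 2, higher by 1.33 (SE 0.18, adjusted p = 2.00e-10). Creb3l1 was higher by 1.03 (SE 0.14) and Kcna2, a voltage-gated potassium channel, by 2.10 (SE 0.47). These were the only members called higher of their lists, with 1 of 9 glycan enzymes, 1 of 20 endoplasmic reticulum genes and 1 of 29 ion channels. The Creb3l1 call was lost in most alternatives. DESeq2 did not call Kcna2. In edgeR the Kcna2 call was lost with no preparation term (adjusted p = 0.302) and with the posterior library in place of the anterior one (adjusted p = 0.133). The calls of Hpca, Csrp2, St3gal4 and Prss23 were lost with DESeq2 (adjusted p = 0.0771 to 0.171). With no preparation term the calls of Hpca and Csrp2 were lost as well (edgeR adjusted p = 0.0824 and 0.140), and without lane 1 that of Csrp2 (0.0504). Ihh, the signal protein Indian hedgehog, fell under the level for named genes and was singled out after its values were seen. It was at 20.1 against 0 CPM in the anterior library, 9.17 against 6.31 CPM in the posterior library, 23.0 against 0 CPM in lane 1 and 24.0 against 3.63 CPM in lane 2, with UMIs in 40 rich and 3 poor cells. The Ihh call, at 4.35 (SE 0.56), was lost without lane 1 (3.69, adjusted p = 0.119), and DESeq2 did not call Ihh. In the pooled lactotrophs, somatotrophs and corticotrophs 3 Ihh UMIs were found against 75 in the anterior and whole-gland gonadotrophs, a ratio of 616-fold (counting interval 203 to 3054).

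Lower in rich cells were Nnat, a proteolipid gene, at 168 against 311 CPM in the anterior library, 91.7 against 164 CPM in the posterior library, 261 against 495 CPM in lane 1 and 161 against 847 CPM in lane 2, and Cdkn1c, the p57 gene, at 56.1 against 94.7 CPM in the anterior library, 66.0 against 256 CPM in the posterior library, 74.0 against 144 CPM in lane 1 and 36.0 against 211 CPM in lane 2. Their log2 fold changes were -1.25 (SE 0.09, adjusted p = 2.21e-37) and -1.24 (SE 0.13, adjusted p = 2.42e-17), and Cdkn1b pointed the same way at -0.51 (SE 0.09), under the size required. Ctsh, a cathepsin, was lower, at -1.03 (SE 0.20), and Penk, the enkephalin precursor, at -1.21 (SE 0.29). Of the 85 Penk UMIs in poor cells 30 lay in 1 cell, and 15 rich and 14 poor cells had a Penk UMI. The calls of Nnat, Cdkn1c, Ctsh and Penk were all lost with DESeq2 and without either lane. Igfbp2 was called lower at -1.55 (SE 0.15), but 124 of its 334 UMIs in poor cells lay in 1 cell and the posterior library had the opposite order, 372 CPM in rich and 196 CPM in poor cells. Of all 56 called genes 13 had at least 20% of the higher group's UMIs in 1 cell. Of 21 activin, inhibin and BMP genes 0 were called (median 0.19), as were 0 of 21 lineage factors and 0 of 22 GnRH signalling genes. The share called over all tested genes was 0.63%, so a count of 0 in lists of this size is near the background. Amhr2, the receptor for anti-Mullerian hormone, reached the size but not the adjusted p, at 1.08 (SE 0.50, adjusted p = 0.399), and was singled out after its values were seen. Under the size required but past the adjusted p were Isl1 at 0.83 (SE 0.12, adjusted p = 1.13e-09) and Rgs4 at 0.75 (SE 0.08, adjusted p = 3.72e-18). Both were called higher when cells with at least 0.1% Fshb were set against cells with 0 Fshb UMIs, an alternative chosen after seeing the data, at 1.10 (SE 0.13) and 1.05 (SE 0.08), and Rgs4 also with at most 10% mitochondrial UMIs (1.04) and without lane 1 (1.05). In the posterior library Isl1 had the opposite order, 182 CPM in rich and 193 CPM in poor cells. Gnrhr differed by 0.37 (SE 0.07), Tgfbr3l by 0.12 (SE 0.05) and Nr5a1 by -0.09 (SE 0.11), and the stress gene Atf3 by -0.58 (SE 0.07).

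**Figure D4:**
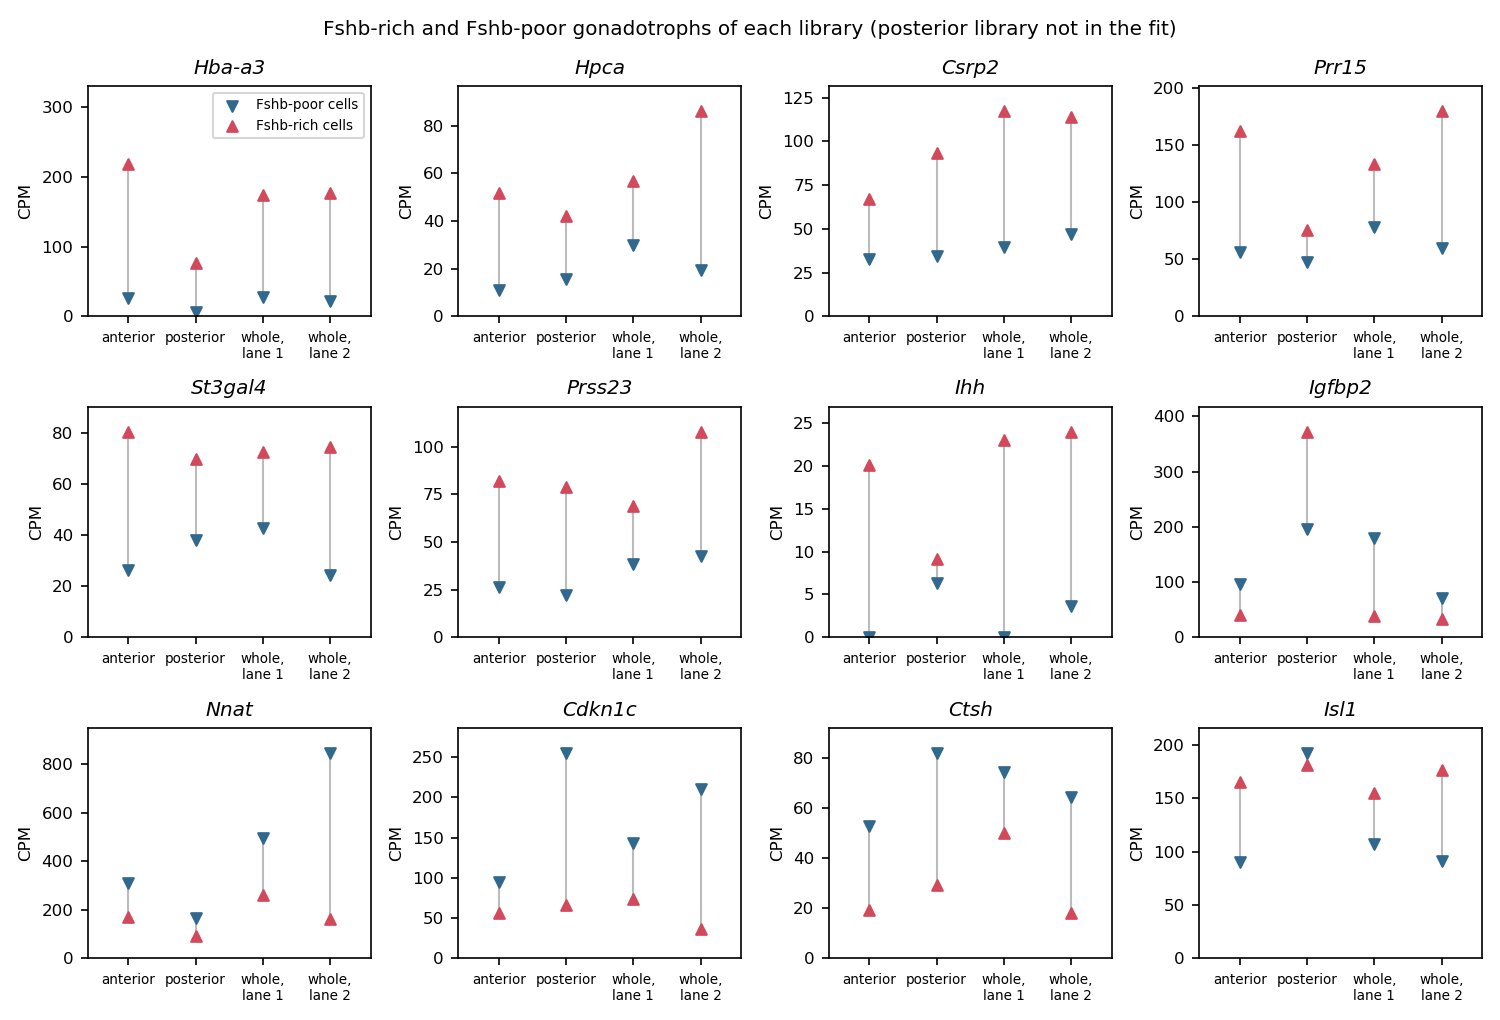
Level of 12 RNAs (y axis, CPM, a range per panel from 0) in Fshb-rich (red, upward) and Fshb-poor (blue, downward) gonadotrophs of each library (x axis); a grey line joins the 2 groups of a library. Hba-a3, Hpca, Csrp2, Prr15, St3gal4 and Prss23 are higher in the rich cells of all 4 libraries, and Igfbp2 turns in the posterior library.

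Between libraries gonadotrophs were much alike, and these comparisons had no test. Of 2485 genes with at least 50 CPM in either lane, 0 were over 2-fold higher and 2 over 2-fold lower in lane 1 than in lane 2, both with most UMIs in 1 cell. Between the anterior library and the whole glands 9 of 2473 genes were over 2-fold higher and 2 over 2-fold lower in the anterior library. Pdcl2 was at 35.4 CPM in the anterior library (exact 95% Poisson interval 27.9 to 44.2) and 77.0 CPM (68.5 to 86.2) in the whole glands. Atoh7, a basic helix-loop-helix factor, was at 68.0 CPM (57.5 to 79.9) against 26.3 CPM (21.4 to 31.9), and Cacna1e at 52.4 CPM (43.2 to 62.9) against 18.0 CPM (14.1 to 22.8). Gpha2, at 237 against 23.4 CPM, had 164 of 515 anterior UMIs in 1 cell and stood at 9576 CPM in S100b-rich cells, where Cyr61 and Apoe, also over 2-fold higher, stood at 1203 and 17693 CPM. These intervals cover counting error only.

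The posterior gonadotrophs differed more from the anterior ones, with 25 of 2583 genes over 2-fold higher and 21 over 2-fold lower. Pomc, the hormone precursor of melanotrophs, was at 1387 CPM (exact 95% Poisson interval 1310 to 1468) in posterior and 179.7 CPM (162 to 198) in anterior gonadotrophs and was detected in 55 of 55 posterior cells. Pomc is a gene of the rule, and the source of these UMIs was not tested. Cartpt, a peptide precursor, was at 690.1 against 34.9 CPM, but 569 of its 595 posterior UMIs lay in 1 cell, and 87 of 166 LOC108348061 UMIs and 42 of 61 Scn7a UMIs did as well. Atoh7 was lower in the posterior cells, with 5 UMIs, or 5.80 CPM (1.88 to 13.5), than in the anterior cells (68.0 CPM). The posterior library held 55 gonadotrophs and 862179 of their UMIs, so 1 cell can set a gene's level there.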

How the data were processed

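The deposited values were raw counts of UMIs per gene and barcode, made by the authors with Cell Ranger 3.1, per the submitters' processing notes; the genome build is not given in the sources used here. No column of values was left unused (0). Barcodes were kept from 1000 UMIs and 500 genes upward, with mitochondrial UMIs up to 20%. Doublets were not removed in the main analysis beyond the limits on other hormones; scanpy 1.11.5 gave Scrublet scores, and leaving out scores above 0.25 was an alternative. UMIs were summed per class and preparation (anterior library; both lanes). edgeR 4.0.16 (R 4.3.3; TMM, filterByExpr, quasi-likelihood test, class and preparation terms) was the test, with Benjamini-Hochberg adjustment over all genes tested, and DESeq2 1.42.0 an alternative. The class fit had 10 sums and 4 residual degrees of freedom. Sums hold 434580 UMIs in the smallest thyrotroph sum and 2176246 and 3882842 in gonadotrophs, so low genes are imprecise.

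The members and lists were chosen with earlier results of these data known. Classes were cut on hormone RNA, so their differences describe cells chosen that way. Genes were named as the 6 largest called changes per direction with at least 50 CPM in the higher class in both preparations, the 3 most abundant members of each of 14 lists, and a fixed set of known regulators; others are named as examples of their list. Some genes of these lists are not reported here. Of the list genes, those with no row in the tables were not analysed here. In data simulated for the thyrotroph comparison over 11668 genes, the adjusted p detected 76 of 100 genes with a 2-fold change and 99 of 100 with a 4-fold change, and 48 and 99 were called, since a call also needs a fitted 2-fold change. For the Fshb groups over 8574 genes 66 and 96 of 99 were detected, and 38 and 96 called. In both simulations the changed genes were drawn only from genes above a minimum expected count in every sum. These rates thus do not cover genes with few UMIs. The simulated counts were drawn with the spread fitted to these data, so the rates cannot show whether that spread is right.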

Additional observations from a re-analysis of the deposited data

Results flagged for a closer look

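For 3 genes the difference between gonadotrophs and thyrotrophs had opposite signs in the 2 preparations, and the difference between the preparations was not tested. Cga was lower in gonadotrophs by a difference of -20400 CPM in the dissected preparation and higher by 7650 CPM in the whole glands. Msx1 differed by 45 CPM in the dissected preparation and by -14.7 CPM in the whole glands. Egr1 differed by 133 CPM in the dissected preparation and by -109 CPM in the whole glands. Each preparation gave 1 value, and the thyrotroph sums rest on 38 and 55 cells.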

How the results depend on the processing

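Of 55 named genes against thyrotrophs, 685 of 715 values under the alternatives kept their direction and call, as did 902 of 909 for 70 genes against the other hormone cells and 272 of 321 for 22 genes of the Fshb groups. Genes without a call count as kept here when they stay uncalled. Of the 56 genes called between the Fshb groups, 3 (DESeq2) to 56 (another normalization) were called again. The number was 20 with the posterior library in place of the anterior one and 17 with at most 10% mitochondrial UMIs. It was 7 without lane 1 and 7 with no preparation term. With at most 10% mitochondrial UMIs, calls against thyrotrophs were 320 higher, 212 lower and 532 in all, and 422 of these were shared with the 1748; the shares of gonadotrophs were 0.777, 0.315, 1.68 and 1.32% in the anterior and posterior libraries and lanes 1 and 2. With Lhb at 1% or more the posterior share was 0.915%. Calls between the Fshb groups were 2 higher and 1 lower (3) with DESeq2, 6 and 1 (7) with no preparation term, and 24 and 11 (35) with groups formed after thinning to 5000 UMIs, an alternative chosen after seeing the data; with doublet scores above 0.25 left out 39 were higher and 40 lower (79). Leaving out 1 library gave 9 to 35 higher, 0 to 18 lower and 9 to 45 in all, the fewest without lane 1; with the posterior library in place of the anterior one 23 were higher. Signs turned for genes that were not called. Against thyrotrophs these were Cga (0.024 with Lhb at 1% or more, and -0.15 to 0.029 when 1 library was left out, above 0 with the posterior library in place of the anterior one, 0.020, and without lane 2), Egr1 (-0.087 with Lhb at 1% or more), Gata2 (0.36), Scg3 (0.031) and Acvr1b (-0.69) with at most 10% mitochondrial UMIs, and Isl1 (0.12) and Msx1 (-0.081) with the posterior library. In the Fshb groups they were Nr5a1 (0.032 with Lhb at 1% or more) and Tgfbr3l (-0.00111 with at most 10% mitochondrial UMIs). The causes were not tested. The preparation term pairs the classes by preparation; without it 1729 genes were called against thyrotrophs and 2541 against the other hormone cells.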
